A study of Homo sapiens with 12 samples.

Results

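The nuclear genes of respiratory complexes III, IV and V were followed in MonoMac6 (MM6), a human acute myeloid leukemia cell line of monocytic type, after knockdown of IGF2BP2. Members were the genes of the deposited table whose symbol began with UQCR, with COX and a digit, or with ATP5, together with cytochrome c (CYCS) and cytochrome c1 (CYC1), with a mean mRNA value of at least 10. Of 19951 gene rows, 56 met the naming rule and 49 of these also met the minimum, while 1 readthrough name was left out. The lowest member, UQCRHL, had a mean mRNA value of 124. Of the 7 genes outside, COX6B2 had a mean of 3 and COX4I2, COX6A2, COX7A1, COX7B2, COX8C and ATP5MGL were at 0 in every mRNA library.

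Complex III passes electrons from ubiquinol to cytochrome c, and complex IV, cytochrome c oxidase, passes them from cytochrome c to oxygen. Both pump protons across the inner mitochondrial membrane. Complex V, the ATP synthase, lets the protons back through a rotating ring of c subunits and uses the turning of its stalk to make ATP. Most subunits are encoded in the nucleus and imported, whereas the catalytic core of complex IV, cytochrome b of complex III and the proton channel of complex V come from mitochondrial DNA. Leukemia cells of the myeloid lineage are known to draw on respiration, and glutamine, the nutrient named in the title of the series, can feed it. IGF2BP2 is a cytosolic RNA-binding protein that reads m6A marks on transcripts.

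All cells carried a lentiviral short hairpin and had been selected with puromycin, including the controls. The control hairpin was shNS, and the hairpins against IGF2BP2 were shBP2-1 and shBP2-2. Lentivirus was applied for 48 h and puromycin for 2 days. Each group was measured as polyadenylated mRNA and as ribosome footprints, the RNA pieces that ribosomes protect, after cycloheximide for 15 min, and each of these had 2 libraries. The sources do not say whether the libraries of a group came from separate cultures, so p-values measure the spread between libraries, which may be technical. All values below are the authors' normalized read counts, rescaled within each assay so that the middle gene is equal in every library.

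IGF2BP2 itself was lower in every knockdown library. Its mRNA values were 2453 and 2343 (shNS), 469 and 504 (shBP2-1) and 713 and 783 (shBP2-2), and its footprint values were 192 and 196 (shNS), 6.69 and 14.9 (shBP2-1) and 19.9 and 21.4 (shBP2-2). The log2 changes in the mean of both hairpins were -1.99 ± 0.09, adjusted p = 3.45e-08 and -3.62 ± 0.28, adjusted p = 1.5e-05 (limma). The deposited mRNA totals lay between 22685066 and 24854593. Totals of the deposited footprint values lay between 4423843 and 4884067 in shNS, between 456338 and 504631 in shBP2-1 and between 1686279 and 2583384 in shBP2-2, and the read numbers behind these normalized values are not known. Of 10 markers of the monocytic line, LYZ, the gene of lysozyme, made up most of the summed mRNA value, at 87015 to 88720.0 in shNS, 140268 to 145670.0 in shBP2-1 and 71559 to 72949 in shBP2-2. The other 9 markers summed to 15418 to 15618 in shNS, 11278 to 13310.0 in shBP2-1 and 9623 to 11018 in shBP2-2, and CD4 was at or near 0 in every library. The B cell markers summed to at most 30.8, the erythroid and megakaryocyte markers to at most 6.95 and the epithelial and fibroblast markers to at most 191. The T and NK cell markers summed to 1492 to 2238, with CD3D and CD3E at 0. Most of that sum was NKG7, with deposited mRNA values of 2131 and 2127 (shNS), 1857 and 1465 (shBP2-1) and 1592 and 1853 (shBP2-2).

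The summed mRNA of the members changed little. With the mean of the shNS libraries at 100%, all 49 members together stood at 103 and 107% (shBP2-1) and 96.7 and 94.2% (shBP2-2), and their footprints at 98.3 and 96.2% (shBP2-1) and 89.2 and 91.3% (shBP2-2). Complex III mRNA stood at 105 and 109.9% (shBP2-1) and 96.2 and 92.8% (shBP2-2), and its footprints at 93.1 and 92.3% (shBP2-1) and 85.3 and 85.2% (shBP2-2). The complex III mRNA sum was raised by UQCRB, at 5163 and 5414 (shNS), 8101 and 10492 (shBP2-1) and 9799 and 7972 (shBP2-2). By contrast, the median log2 mRNA change of the 10 complex III genes was -0.01 with shBP2-1 and -0.31 with shBP2-2. Complex IV mRNA stood at 105 and 104% (shBP2-1) and 88.8 and 89.3% (shBP2-2), and its footprints at 102 and 98.1% (shBP2-1) and 85.7 and 87% (shBP2-2). Complex V mRNA stood at 101 and 107% (shBP2-1) and 95.9 and 93% (shBP2-2), and its footprints at 100.2 and 98.3% (shBP2-1) and 93 and 95.8% (shBP2-2). ATP5F1A (3840 and 4038) and ATP5F1B (2627 and 2597) made up much of the complex V footprint sum in shNS, 14401 and 14201. The median log2 footprint change of the 18 complex V genes was -0.04 with shBP2-1 and -0.18 with shBP2-2. The shBP2-2 sums were below shNS in both assays for each complex, whereas the shBP2-1 sums were above shNS in mRNA.

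Beneath these sums the single transcripts went both ways. In the mean of both hairpins, 13 of 49 member mRNAs rose and 14 fell, where 28.9% of all 12203 genes tested rose and 30.0% fell (limma with precision weights, adjusted p under 0.05 over all genes). The SE given after each log2 change leaves out the difference between the hairpins. The members' shares of 26.5 and 28.6% were thus near those of all genes. The median log2 change of the members was -0.03, beside -0.01 over all genes. With shBP2-1 alone 12 rose and 6 fell, against 23.5 and 21.0% of all genes, and with shBP2-2 alone 8 rose and 16 fell, against 28.2 and 28.8%. UQCRB, COX7B, ATP5F1C, ATP5PF, ATP5PO and ATP5MD rose with each hairpin, and CYC1, UQCR11, COX8A, ATP5F1D and ATP5MC2 fell with each. The number of calls was 8 without shNS replicate 1 and 13 without shNS replicate 2, and 19 and 14 of the 27 calls were lost there. The calls of UQCRB, ATP5MD, ATP5PF, ATP5F1C, ATP5F1D, UQCR11, CYC1 and COX5B held with any 1 library left out. With shBP2-1 the count was 5 without either shNS library, 29 without shBP2-1 replicate 1 and 8 without shBP2-1 replicate 2. With shBP2-2 it was 14 and 15 without shNS replicate 1 and 2 and 12 without shBP2-2 replicate 1.

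**Figure D1:**
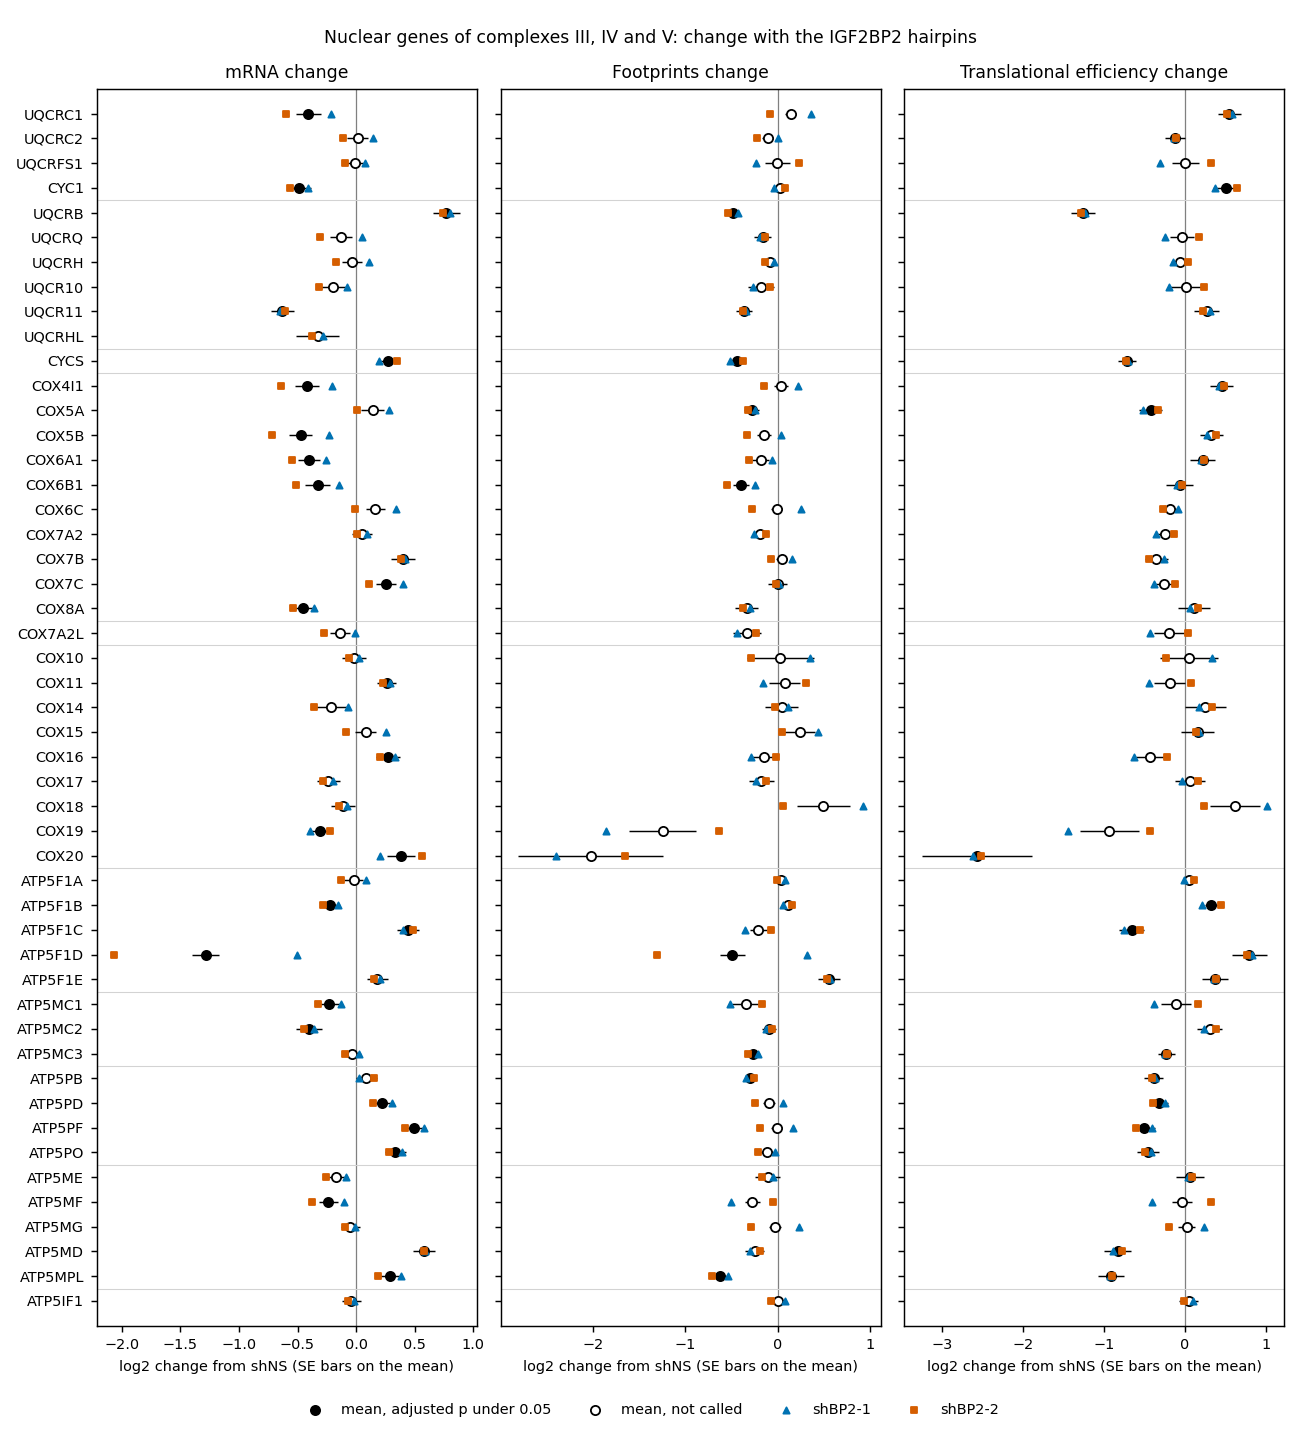
Log2 change from shNS of each member (rows, grouped by role) in mRNA, footprints and translational efficiency, for the mean of both hairpins (circles with SE bars, filled where the adjusted p was under 0.05), shBP2-1 (triangles) and shBP2-2 (squares), n = 2 libraries per group and assay. UQCRB is highest and ATP5F1D lowest in mRNA, and most other members lie within 0.6 of 0. Changes are relative to the middle of all genes, and without rescaling every member's footprints were lower.

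Among the 10 complex III genes, 1 mRNA rose and 3 fell. The accessory subunit UQCRB, which sits on the matrix side of the complex next to the ubiquinone site (chromosome 8, 96222947 to 96235545, GRCh38), had mRNA values of 5163 and 5414 (shNS), 8101 and 10492 (shBP2-1) and 9799 and 7972 (shBP2-2). Its 4 knockdown libraries all lay above both shNS libraries, and the log2 change was 0.77 ± 0.11 (adjusted p = 0.000281), the largest rise of any member. UQCR11, the smallest accessory subunit (chromosome 19, 1597169 to 1605462), went the other way, with 2023 and 1995 (shNS), 1386 and 1178 (shBP2-1) and 1201 and 1448 (shBP2-2) and a change of -0.63 ± 0.10, adjusted p = 0.00044. The groups did not overlap, and both hairpins gave nearly the same value (-0.65 and -0.61).

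The core of complex III was split. CYC1, whose heme hands the electron to cytochrome c (chromosome 8, 144095076 to 144097525), fell, with 4882 and 4726 (shNS), 4053 and 3239.9 (shBP2-1) and 3057 and 3465 (shBP2-2) (-0.48 ± 0.10, adjusted p = 0.00164). UQCRC1, a core protein on the matrix side (chromosome 3, 48599002 to 48609646), had 5183 and 4947 (shNS), 4846 and 3919.6 (shBP2-1) and 3007 and 3715 (shBP2-2) (-0.41 ± 0.11, adjusted p = 0.00609). UQCRC1 was lowest with shBP2-2 and lay closer to shNS with shBP2-1. UQCRC2, the partner of UQCRC1, had 4403 and 4313 (shNS), 4454 and 5198 (shBP2-1) and 4242 and 3817 (shBP2-2), where shBP2-1 lay above and shBP2-2 below shNS and the mean was 0.01 ± 0.09, adjusted p = 0.903. UQCRFS1, the Rieske iron-sulfur protein, had 3216 and 3097 (shNS), 3213 and 3426 (shBP2-1) and 3047 and 2879 (shBP2-2) (-0.01 ± 0.08, adjusted p = 0.925), with overlapping groups. The other accessory subunits UQCRQ, UQCRH, UQCR10 and UQCRHL had changes between -0.33 and -0.03 and were not called. UQCRHL is a near copy of UQCRH, so reads of these genes may be assigned to either, and UQCRHL was listed at 0 in every footprint library.

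CYCS, the mobile carrier between complexes III and IV (chromosome 7, 25118656 to 25125260), rose. Its mRNA values were 10536 and 11054 (shNS), 11991 and 12751 (shBP2-1) and 14176 and 13384 (shBP2-2), higher in 4 of 4 knockdown libraries (0.27 ± 0.08, adjusted p = 0.012). The call was lost under quantile scaling, where the adjusted p was 0.055. RefSeq lists 45 pseudogenes named after CYCS, the most of any member, and 172 named after 32 members in all, so reads shared with such copies leave these levels uncertain. Leaving out 1 library ended the calls of UQCRC1 without shNS replicate 1 (0.0733) and CYCS without shNS replicate 1 or 2 or shBP2-2 replicate 1 (0.173, 0.077 and 0.0558), with the adjusted p in parentheses.

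In complex IV, 2 of 10 subunit mRNAs rose and 5 fell. COX4I1, the regulatory subunit that binds ATP (chromosome 16, 85799695 to 85807068), fell, with 3584 and 3327 (shNS), 3298 and 2719.5 (shBP2-1) and 2031 and 2416 (shBP2-2) (-0.42 ± 0.10, adjusted p = 0.00389). COX5B, a zinc-binding subunit on the matrix side (chromosome 2, 97646062 to 97648383), fell, with 3076 and 2980.4 (shNS), 2823 and 2354 (shBP2-1) and 1722 and 1976 (shBP2-2) (-0.47 ± 0.10, adjusted p = 0.00155). Both were lower in every knockdown library and lowest with shBP2-2. COX8A, a small membrane subunit (chromosome 11, 63974620 to 63976543), had 3253 and 3097 (shNS), 2766 and 2221 (shBP2-1) and 1993 and 2383 (shBP2-2) (-0.45 ± 0.11, adjusted p = 0.00321). COX6A1 (-0.40 ± 0.09) and COX6B1 (-0.33 ± 0.11) also fell, the latter with a shBP2-1 library inside the range of shNS. The subunits that rose were COX7B (chromosome X, 77899468 to 77907376), with 2929 and 3026 (shNS), 3567 and 4441 (shBP2-1) and 4231 and 3559.8 (shBP2-2) (0.40 ± 0.10, adjusted p = 0.00587), and COX7C (0.26 ± 0.08, adjusted p = 0.0187). COX5A, a subunit on the matrix side, was not called at 3223 and 3359 (shNS), 3653 and 4357 (shBP2-1) and 3545 and 3074 (shBP2-2) (0.14 ± 0.10, adjusted p = 0.223). COX6C (0.17), COX7A2 (0.05) and COX7A2L (-0.14), a factor that joins complexes III and IV, were not called either.

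Of the 9 assembly factors named COX, 3 rose and 1 fell. COX20, a chaperone of the mitochondrially encoded subunit MT-CO2 (chromosome 1, 244835306 to 244845063), had 355 and 326 (shNS), 351 and 439 (shBP2-1) and 492 and 513 (shBP2-2) (0.38 ± 0.12, adjusted p = 0.0141), with a shBP2-1 library inside the shNS range. COX11, which delivers copper, rose by 0.26 ± 0.08 and COX16, which also acts in copper delivery, by 0.27 ± 0.10. COX19, another copper factor, fell by 0.31 ± 0.10 on the log2 scale. The heme A enzymes COX10 (-0.02) and COX15 (0.08), the copper chaperone COX17 (-0.24), and COX14 (-0.21) and COX18 (-0.11) were not called. COX16 overlaps the readthrough gene SYNJ2BP-COX16 in the annotation. Within complex IV only COX5B held its call with any 1 library left out, and the adjusted p was COX4I1 0.0704, COX8A 0.0505, COX7B 0.0619 and COX6A1 0.0604 without shNS replicate 1. COX6B1, COX7C, COX11, COX16, COX19 and COX20 lost theirs without either shNS library.

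In complex V, 6 of 18 mRNAs rose and 5 fell, where 28.9% of all genes rose and 30.0% fell. The parts of the enzyme are given in turn and were not tested against each other. Of the 5 genes of the F1 head and central stalk, ATP5F1D, the delta subunit at the foot of the rotating stalk (chromosome 19, 1241751 to 1244825), fell furthest of all members. Its mRNA values were 2243 and 2273 (shNS), 1749 and 1449.8 (shBP2-1) and 469 and 618 (shBP2-2), so shBP2-2 lay far below shBP2-1, which lay below shNS (-1.29 ± 0.11, adjusted p = 7.94e-06). ATP5F1C, the gamma subunit that turns inside the head (chromosome 10, 7788177 to 7807801), rose, with 2439 and 2506 (shNS), 2971 and 3589 (shBP2-1) and 3668 and 3257 (shBP2-2) (0.44 ± 0.10, adjusted p = 0.00219). The catalytic beta subunit ATP5F1B (chromosome 12, 56638175 to 56645984) fell slightly, with 16303 and 16042 (shNS), 14290.2 and 14759.9 (shBP2-1) and 13266 and 13253 (shBP2-2) (-0.22 ± 0.08, adjusted p = 0.029). ATP5F1A, the alpha subunit of the same head, was at 13089 and 13219 (shNS), 13389.6 and 14515 (shBP2-1) and 12330.5 and 11792 (shBP2-2) and not called (-0.02 ± 0.08, adjusted p = 0.838), nor was ATP5F1E, the epsilon subunit (0.18 ± 0.09).

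The c-ring genes encode the same mature protein behind different import signals, and 2 of the 3 fell. ATP5MC2 had 3406 and 3481 (shNS), 3028 and 2381 (shBP2-1) and 2307 and 2780.1 (shBP2-2) (-0.40 ± 0.11, adjusted p = 0.00693), and ATP5MC1 had 1557 and 1457 (shNS), 1455 and 1303 (shBP2-1) and 1131 and 1272 (shBP2-2) (-0.23 ± 0.09, adjusted p = 0.048). ATP5MC3, the most abundant of the 3 in total mRNA value, was at 4146 and 4129 (shNS), 4190.2 and 4248 (shBP2-1) and 3834 and 3897 (shBP2-2) (-0.03 ± 0.08, adjusted p = 0.719), and its knockdown libraries lay on both sides of shNS. The peripheral stalk, which keeps the head from turning, had 3 of 4 genes higher and none lower. ATP5PF, known as coupling factor 6 (chromosome 21, 25724500 to 25735653), rose, with 2289 and 2351 (shNS), 3111 and 3863 (shBP2-1) and 3322 and 2886 (shBP2-2) (0.50 ± 0.10, adjusted p = 0.00153), ATP5PO by 0.34 ± 0.09 and ATP5PD by 0.22 ± 0.09, while ATP5PB was at 0.09 ± 0.09, adjusted p = 0.402. ATP5PF lies beside GABPA, a transcription factor gene that overlaps it in the annotation.

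Of the 5 small membrane subunits, 2 rose and 1 fell. ATP5MD, named ATP5MK in RefSeq and required for dimers of the synthase (chromosome 10, 103389050 to 103396475), had 1628 and 1719.9 (shNS), 2282 and 2760.3 (shBP2-1) and 2571 and 2422 (shBP2-2), higher in every knockdown library (0.58 ± 0.10, adjusted p = 0.000512). ATP5MPL, named ATP5MJ in RefSeq (chromosome 14, 103912288 to 103921529), had 1377 and 1372 (shNS), 1642 and 1960.3 (shBP2-1) and 1687 and 1457 (shBP2-2) (0.29 ± 0.10, adjusted p = 0.0252). ATP5MF fell (-0.24 ± 0.08, adjusted p = 0.024), and ATP5ME (-0.17) and ATP5MG (-0.05) were not called. ATP5IF1, which blocks the synthase when it would run backwards and split ATP, was level at 2488 and 2477 (shNS), 2473 and 2430.0 (shBP2-1) and 2327 and 2411 (shBP2-2) (-0.04 ± 0.08, adjusted p = 0.663). In complex V the calls of ATP5F1B, ATP5MC1, ATP5MC2, ATP5MF, ATP5MPL, ATP5PO and ATP5PD were each lost without shNS replicate 1, at adjusted p values of 0.249, 0.349, 0.0517, 0.185, 0.135, 0.0623 and 0.209, and without shNS replicate 2, at 0.187, 0.137, 0.0576, 0.184, 0.13, 0.0811 and 0.195. In bulk RNA a lower level in each cell and fewer cells with a high level cannot be told apart.

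Promoters of members that moved in opposite directions were searched for letters of factors known to act on respiratory genes. The RefSeq promoter table (GRCh38.p14, 250 bases before to 50 after each start) held 40 of the 49 members, and a gene counted as matching if any of its starts matched on either strand. Members without a promoter there included UQCRB and ATP5F1D, the largest rise and fall in mRNA. COX11, which rose, and CYC1, ATP5F1B and ATP5MF, which fell, were missing as well. The ETS letters CCGGAAG, read by GABP, were found in 18 of 40 members, or 45%, beside 16.5% of 15843 protein-coding genes and 12.2% of all 27305 genes in the table. The NRF1 letters, GCGC repeated after any 2 bases, which read the same on both strands, were found in 10, or 25%, beside 13.9 and 9.98%, and the YY1 letters AANATGGCG in 7, or 17.5%, beside 5.59 and 3.85%. A start at C followed by 4 pyrimidines was found in 8, or 20%, beside 6.24 and 5.14%. Median GC content was 61% for members and 62.3% for protein-coding genes.

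Matches were found among members of either direction of mRNA change. ETS letters were in 4 of the 11 members with a promoter that rose and in 6 of the 10 that fell, NRF1 letters in 3 and 2, YY1 letters in 2 and 2, and the pyrimidine start in 2 and 2. The 4 promoters below show this for a pair that fell (UQCR11 and COX5B) and a pair that rose (ATP5MD and ATP5F1C), each with 1 start in the table. They run 5′ to 3′ on the gene's own strand, and capitals mark the ETS and NRF1 letters on either strand. UQCR11 is on the minus strand at chr19:1605413-1605712, COX5B on the plus strand at chr2:97645812-97646111, ATP5MD on the minus strand at chr10:103396426-103396725 and ATP5F1C on the plus strand at chr10:7787927-7788226.
UQCR11: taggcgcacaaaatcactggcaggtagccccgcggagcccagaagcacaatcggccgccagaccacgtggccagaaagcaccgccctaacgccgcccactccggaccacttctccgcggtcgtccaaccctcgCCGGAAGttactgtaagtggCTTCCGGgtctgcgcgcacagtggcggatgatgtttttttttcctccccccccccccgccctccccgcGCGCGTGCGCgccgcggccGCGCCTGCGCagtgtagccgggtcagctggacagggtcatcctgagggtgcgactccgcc
COX5B: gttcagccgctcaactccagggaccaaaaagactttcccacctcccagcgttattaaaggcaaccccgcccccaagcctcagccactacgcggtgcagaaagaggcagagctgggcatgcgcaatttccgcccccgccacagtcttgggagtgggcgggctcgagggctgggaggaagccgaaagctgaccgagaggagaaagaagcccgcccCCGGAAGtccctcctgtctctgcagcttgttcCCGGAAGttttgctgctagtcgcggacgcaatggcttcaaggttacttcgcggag
ATP5MD: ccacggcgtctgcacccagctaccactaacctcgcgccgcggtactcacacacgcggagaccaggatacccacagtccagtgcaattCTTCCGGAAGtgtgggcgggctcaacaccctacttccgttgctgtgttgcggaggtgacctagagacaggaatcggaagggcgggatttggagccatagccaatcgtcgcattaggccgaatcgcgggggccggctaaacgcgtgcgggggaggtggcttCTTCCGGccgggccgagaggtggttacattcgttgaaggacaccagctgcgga
ATP5F1C: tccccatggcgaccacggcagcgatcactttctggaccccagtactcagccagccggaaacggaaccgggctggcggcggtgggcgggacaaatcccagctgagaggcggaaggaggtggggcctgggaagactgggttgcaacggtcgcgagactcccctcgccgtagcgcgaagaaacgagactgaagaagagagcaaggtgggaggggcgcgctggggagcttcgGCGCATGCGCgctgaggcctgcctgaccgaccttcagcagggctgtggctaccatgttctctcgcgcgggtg
UQCR11 had ETS matches that began 117 and 97 bases before the start and NRF1 matches at 29 and 10 bases. COX5B had ETS matches at 37 and 5 bases and no NRF1 match. ATP5MD had ETS matches at 163, 160 and 3 bases, of which the first and second overlap on opposite strands. ATP5F1C had 1 NRF1 match at 22 bases and no ETS match. These are letter matches in 1 window and not measured binding.

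The hairpins differed at several of these genes. In mRNA, 9 members were higher with shBP2-1 than with shBP2-2 and 0 were lower, where 11.5% of all genes were higher and 11.8% lower. The difference was positive for 43 of 49 members, or 87.8%, beside 52.5% of all genes, with medians of 0.16 and 0.02 on the log2 scale. ATP5F1D differed most (1.56 ± 0.14, adjusted p = 6.04e-06), at -0.50 ± 0.13 with shBP2-1 and -2.07 ± 0.14 with shBP2-2. COX5B (0.48 ± 0.11, adjusted p = 0.00798) and COX4I1 (0.43 ± 0.12, adjusted p = 0.019) fell with shBP2-2, whereas their shBP2-1 changes of -0.23 and -0.21 were not called. COX6C, a complex IV subunit (chromosome 8, 99877865 to 99893707), was at 2249 and 2248 (shNS), 2828 and 2865 (shBP2-1) and 2188 and 2284 (shBP2-2), so that it rose with shBP2-1 (0.34 ± 0.09) and was at the shNS level with shBP2-2 (difference 0.35 ± 0.09, adjusted p = 0.017). UQCRQ, an accessory subunit of complex III, was at 1206 and 1252 (shNS), 1349.9 and 1203 (shBP2-1) and 948 and 1033 (shBP2-2) (difference 0.36 ± 0.11, adjusted p = 0.0259). COX15, which converts heme O to heme A, was at 1173 and 1088 (shNS), 1307 and 1386 (shBP2-1) and 1097 and 1033 (shBP2-2) (difference 0.34 ± 0.10, adjusted p = 0.0303). UQCRC1, COX6B1 and COX7C made up the rest of the 9.

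Among the markers of the monocytic line, LYZ was highest in shBP2-1 and lowest in shBP2-2. The other 9 together were below shNS with each hairpin and lowest in shBP2-2, but single markers went different ways. Deposited mRNA values of MPO were 5483 and 5419 (shNS), 4009 and 3357 (shBP2-1) and 1471 and 1781 (shBP2-2). SPI1 was also lowest in shBP2-2. ITGAM had 88 and 99 (shNS), 149 and 135 (shBP2-1) and 119 and 156 (shBP2-2). CD14 was at 770 and 731 (shNS), 570 and 456 (shBP2-1) and 683 and 873 (shBP2-2). The part of these markers in the hairpin difference was not tested. ATP5F1D held its call with any 1 library left out. The count was 3 without shNS replicate 1, 3 without shNS replicate 2, 15 without shBP2-1 replicate 2 and 1 without shBP2-2 replicate 1. Losses on leaving out 1 library, with the adjusted p, were COX5B without shBP2-2 replicate 1 (0.0719), COX4I1 without shBP2-2 replicate 1 (0.17), COX6C without shNS replicate 1 or 2 or shBP2-2 replicate 1 or 2 (0.0537, 0.0544, 0.159 and 0.0651), UQCRQ without shNS replicate 1 or 2 or shBP2-1 replicate 1 or shBP2-2 replicate 1 (0.0613, 0.0617, 0.069 and 0.204) and COX15 without shNS replicate 1 or 2 or shBP2-2 replicate 1 or 2 (0.0742, 0.0751, 0.0864 and 0.192).

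Footprint changes were called less often and mostly downward. In data simulated with the same dispersion for every gene and library, the fit recovered 61% of log2 changes of 0.5 in mRNA and 35% in footprints. The real libraries differed in spread, with a median log2 difference between replicates of 0.077 in shNS mRNA and 0.258 in shBP2-1 footprints. These rates may thus not hold here, and the number of calls alone does not show whether fewer genes changed. In the mean of both hairpins 1 of 48 members was called higher and 9 lower, where 4.96% of all 9306 genes tested were higher and 4.28% lower, and the members' shares were 2.08 and 18.8%. Their median was -0.13, beside -0.01 over all genes. With shBP2-1 alone 1 was higher and 5 lower, against 3.86 and 2.88% of all genes, and with shBP2-2 alone 2 were higher and 15 lower, against 7.02 and 5.32%. UQCRB, CYCS, ATP5PB and ATP5MPL fell with each hairpin. All 6 calls with shBP2-1 were lost without either shBP2-1 footprint library, and 13 and 9 of the 17 calls with shBP2-2 without shBP2-2 replicate 1 and 2. All these changes are relative to the middle of all genes. Without rescaling, the median gene was at -2.26 in the mean of both hairpins and the median member at -2.38.

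ATP5MPL, UQCRB and CYCS had the steadiest decreases. ATP5MPL footprints were 448 and 404 (shNS), 321 and 264 (shBP2-1) and 243 and 274 (shBP2-2) (-0.62 ± 0.09, adjusted p = 0.00161). UQCRB footprints were 1537 and 1447 (shNS), 1121 and 1094 (shBP2-1) and 973 and 1067 (shBP2-2) (-0.49 ± 0.06, adjusted p = 0.000213). CYCS footprints were 795 and 705 (shNS), 525 and 525 (shBP2-1) and 542 and 609.9 (shBP2-2) (-0.44 ± 0.08, adjusted p = 0.00471). For each of these genes all 4 knockdown libraries lay below both shNS libraries, and the call held with any 1 library left out.

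The other decreases were smaller or rested on fewer libraries. COX6B1, a subunit that faces the intermembrane space, had 489 and 433 (shNS), 348 and 436 (shBP2-1) and 325 and 309 (shBP2-2) (-0.40 ± 0.09, adjusted p = 0.0158), with a shBP2-1 library inside the shNS range. UQCR11 had 360.2 and 376 (shNS), 304 and 272 (shBP2-1) and 265 and 297 (shBP2-2) (-0.36 ± 0.09, adjusted p = 0.0209), and ATP5PB, the long arm of the peripheral stalk, had 867 and 888 (shNS), 659 and 722 (shBP2-1) and 717 and 752 (shBP2-2) (-0.30 ± 0.06, adjusted p = 0.00761), both without overlap. COX5A had 488 and 476 (shNS), 418 and 395 (shBP2-1) and 355 and 409 (shBP2-2) (-0.28 ± 0.08, adjusted p = 0.0393) and ATP5MC3 618 and 559 (shNS), 518 and 491 (shBP2-1) and 481 and 466 (shBP2-2) (-0.27 ± 0.07, adjusted p = 0.0387), also without overlap. ATP5F1D had 150.0 and 125 (shNS), 154 and 189.9 (shBP2-1) and 59.7 and 52.6 (shBP2-2). Its mean of -0.49 ± 0.14, adjusted p = 0.0406 describes neither hairpin, since it was at 0.32 with shBP2-1 and -1.30 with shBP2-2.

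ATP5F1E, the epsilon subunit (chromosome 20, 59025475 to 59032335), was the member with higher footprints, at 168 and 197 (shNS), 288 and 249 (shBP2-1) and 302 and 238 (shBP2-2) (0.55 ± 0.12, adjusted p = 0.0137), a direction that turned to -1.70 without rescaling. It overlaps the readthrough gene SLMO2-ATP5E and TUBB1 in the annotation. Its 4 knockdown libraries lay above both shNS libraries. The number of footprint calls was 3 without shBP2-1 replicate 1, 6 without shBP2-1 replicate 2 and 6 without shBP2-2 replicate 1. Without shBP2-1 replicate 1 the adjusted p was 0.112 for ATP5F1E, 0.173 for COX6B1, 0.102 for UQCR11, 0.116 for ATP5PB, 0.176 for COX5A, 0.172 for ATP5MC3 and 0.24 for ATP5F1D. In the fit over all 12 libraries 4 members were called, and without precision weights 6.

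In the mean of both hairpins the footprints of the 4 complex III core subunits, ATP5F1A and ATP5F1B were not called, but some were with 1 hairpin. By contrast, CYCS, COX5A, ATP5F1D and ATP5MC3 were called lower in the mean and ATP5F1E higher, as given above. ATP5F1A footprints were at 3839.8 and 4038 (shNS), 4275 and 4009 (shBP2-1) and 3876 and 3943 (shBP2-2) (0.03 ± 0.04, adjusted p = 0.579), and ATP5F1B footprints at 2627 and 2597 (shNS), 2783 and 2651 (shBP2-1) and 2873 and 2942 (shBP2-2) (0.11 ± 0.04, adjusted p = 0.0777), above shNS in every knockdown library. ATP5F1B was called higher with shBP2-2 (0.16 ± 0.04, adjusted p = 0.0125) and not in the mean, a direction that turned to -2.15 in the mean without rescaling. CYC1 had 334 and 300.1 (shNS), 301 and 313 (shBP2-1) and 339 and 334 (shBP2-2) (0.02 ± 0.09, adjusted p = 0.906), and UQCRC1 801 and 804 (shNS), 1064 and 994 (shBP2-1) and 799.8 and 728 (shBP2-2) (0.14 ± 0.06, adjusted p = 0.144). UQCRC1 was called higher with shBP2-1 (0.36 ± 0.08, adjusted p = 0.0219), relative to a middle gene that stood at -3.32 with shBP2-1 without rescaling. UQCRC2 (-0.22 ± 0.06, adjusted p = 0.0369) and COX5B (-0.34 ± 0.08, adjusted p = 0.019) were called lower with shBP2-2. UQCRC2 (-0.11 ± 0.06), UQCRFS1 (0.00 ± 0.13), COX4I1 (0.04 ± 0.07), COX5B (-0.15 ± 0.08), ATP5MC1 (-0.34 ± 0.15), ATP5MC2 (-0.10 ± 0.07) and ATP5IF1 (0.00 ± 0.08) were not called in the mean. Among assembly factors no footprint change was called, at low levels for some, such as COX10 with values between 6.69 and 14.9.

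The hairpins differed in footprints too. Here 5 members were higher with shBP2-1 than with shBP2-2 and 0 lower, where 3.27% of all genes were higher and 3% lower. ATP5F1D differed by 1.62 ± 0.23, adjusted p = 0.00124, COX6C by 0.52 ± 0.09, adjusted p = 0.00374, ATP5MG by 0.52 ± 0.11, adjusted p = 0.012, UQCRC1 by 0.44 ± 0.09, adjusted p = 0.0109 and ATP5PF by 0.36 ± 0.10, adjusted p = 0.0444. ATP5F1D, COX6C and UQCRC1 were also among the 9 members whose mRNA differed. COX6C footprints were at 818 and 858 (shNS), 1004 and 983 (shBP2-1) and 669 and 709 (shBP2-2), with shBP2-1 above and shBP2-2 below shNS. The count was 8 without either shNS library, 1 without either shBP2-1 library and 3 without shBP2-2 replicate 1, and ATP5F1D was called in every fit that left out 1 library. These differences are relative to the middle of all genes, and without rescaling, where the median difference of all genes was -2.14, 47 members were lower with shBP2-1 and 0 higher.

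The changes of mRNA and footprints did not run in parallel across the members. Over 48 members Pearson's r was -0.03 and Spearman's rho 0.02, and over the 45 members with a mean footprint value of at least 50 they were 0.14 and 0.08. Over all 9216 genes tested in both assays they were -0.04 and -0.08. The points of each assay share its libraries, so these values describe this experiment and carry no test. Of the 13 members with higher mRNA, UQCRB, CYCS and ATP5MPL had lower footprints and 0 had higher, which is 23.1%, where 4.37% of the 3088 genes with higher mRNA had lower footprints. Of the 14 members with lower mRNA, UQCR11, COX6B1 and ATP5F1D had lower footprints, which is 21.4%, where 4.01% of all such genes did. ATP5F1D is counted here although its footprint change was 0.32 with shBP2-1. Of the 21 members whose mRNA was not called, 3 had lower footprints, which is 14.3%, where 4.25% of such genes did. In the mean, the members' shares were thus above those of all genes whatever the mRNA call. With shBP2-1 alone, 2 of 12 members with higher mRNA had lower footprints (UQCRB and ATP5MPL), against 2.07% of genes, and with shBP2-2 alone, 2 of 8 (UQCRB and CYCS), against 3.30%. Of the members with lower mRNA, 0 of 6 had lower footprints with shBP2-1, against 4.40% of such genes, and 5 of 16 with shBP2-2, against 6.84%. These were ATP5F1D, COX5B, COX6A1, COX6B1 and UQCR11. The mRNA calls of ATP5MPL and CYCS were lost without shNS replicate 1 (adjusted p = 0.135 and 0.173), and with them the opposite calls of these genes.

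**Figure D2:**
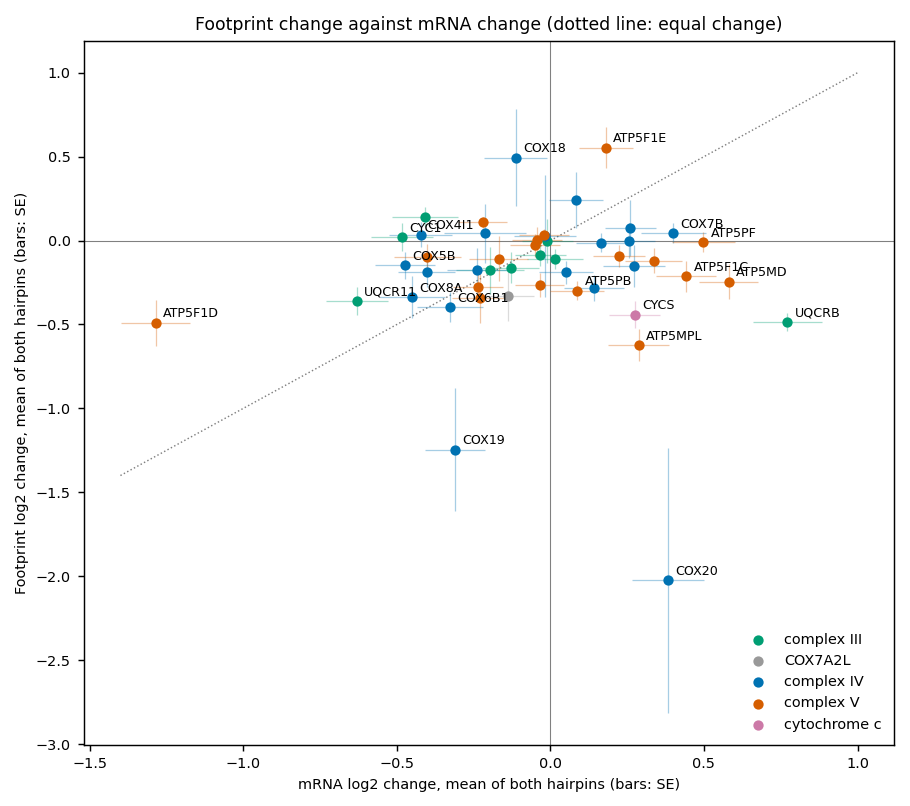
Log2 change of footprints (vertical) against log2 change of mRNA (horizontal) in the mean of both hairpins for 48 members, coloured by complex, with SE bars and a dotted line of equal change. UQCRB, CYCS and ATP5MPL lie at lower right with higher mRNA and lower footprints, and most members lie in a flat band near 0 on the vertical axis. Both axes are relative to the middle of all genes.

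**Figure D3:**
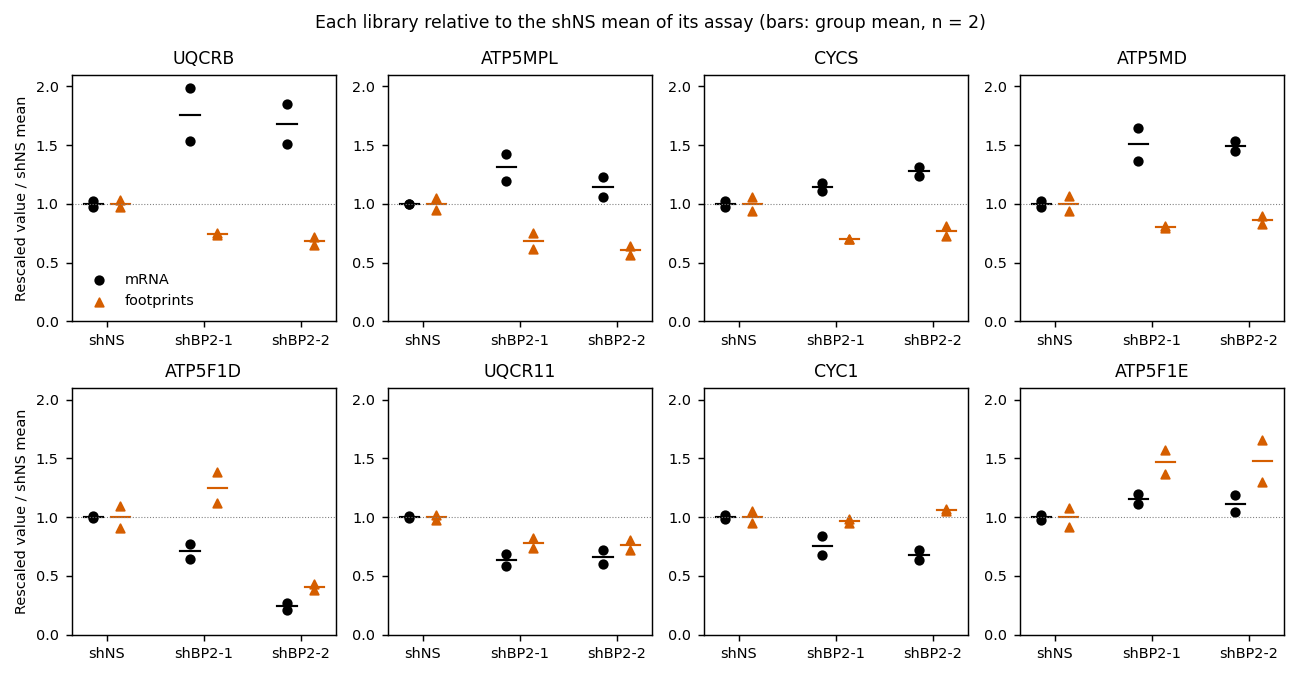
Rescaled values of 8 members in each library, divided by the shNS mean of the same assay (circles mRNA, triangles footprints, short bars group means, n = 2). For UQCRB the mRNA of every knockdown library is above shNS and the footprints below it, and for ATP5F1D both assays are lowest with shBP2-2. The footprint rise of ATP5F1E is relative to the middle of all genes and turned to -1.70 on the log2 scale without rescaling.

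Translational efficiency, the footprint change minus the mRNA change, was called higher for 5 of 48 members and lower for 11, where 13.2% of all 9216 genes were higher and 15.6% lower. The members' shares were 10.4 and 22.9%, with medians of -0.05 for members and -0.04 for all genes. Because the mRNA change enters this difference with a minus sign, genes called higher in mRNA had a median of -0.50 over all 3088 genes and -0.51 over 13 members, and genes called lower had 0.50 over 3045 genes and 0.29 over 14 members. With shBP2-1 alone 1 member was higher and 5 lower, against 4.84 and 5.91% of genes, and with shBP2-2 alone 5 were higher and 11 lower, against 12 and 11.9%. Of the 6 calls with shBP2-1, 4 and 5 were lost without shBP2-1 footprint replicate 1 and 2, and of the 16 with shBP2-2, 10 without shBP2-2 footprint replicate 1 and 9 without shBP2-2 mRNA replicate 1.

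All 4 genes of the peripheral stalk were called lower in the mean of both hairpins, ATP5PF at -0.51 ± 0.14, ATP5PO at -0.45 ± 0.13, ATP5PB at -0.39 ± 0.11 and ATP5PD at -0.32 ± 0.11. The mRNA of ATP5PF, ATP5PO and ATP5PD was called higher, and all 3088 genes with higher mRNA had a median of -0.50, so these falls are not particular to the stalk. All 4 stalk genes were called with shBP2-2 and 0 with shBP2-1, where the adjusted p lay between 0.111 and 0.249, and each of these calls in the mean was lost on leaving out 1 library. UQCRB had the largest well-measured fall in efficiency, at -1.26 ± 0.15, adjusted p = 0.000112, with -1.23 and -1.29 for the hairpins. ATP5MPL (-0.91 ± 0.16, adjusted p = 0.00136), ATP5MD (-0.83 ± 0.17, adjusted p = 0.00309), CYCS (-0.71 ± 0.11, adjusted p = 0.000831) and ATP5F1C (-0.66 ± 0.15, adjusted p = 0.00655) fell as well, and these and UQCRB fell with each hairpin. For ATP5MD and ATP5F1C this came with higher mRNA and footprints that were not called, ATP5MD footprints being 220.2 and 249.9 (shNS), 191 and 186 (shBP2-1) and 195 and 212 (shBP2-2) and ATP5F1C footprints 393 and 451 (shNS), 314 and 342 (shBP2-1) and 377 and 418 (shBP2-2). COX5A was at -0.42 ± 0.14, adjusted p = 0.0366. COX20 was called lower too, but its footprint values were 6.01 and 14.5 (shNS), 0 and 0 (shBP2-1) and 0 and 10.4 (shBP2-2), so no size is given for it.

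Efficiency rose for 5 members whose mRNA fell, and in each of these the direction turned negative without rescaling, where the median gene was at -2.29. With rescaling, the median over all 3045 genes called lower in mRNA was 0.50, so a rise is not particular to these members. UQCRC1 was at 0.55 ± 0.14, adjusted p = 0.0092 and was called with each hairpin. CYC1 was at 0.51 ± 0.16, adjusted p = 0.0264, COX4I1 at 0.46 ± 0.14, adjusted p = 0.0238 and ATP5F1B at 0.33 ± 0.08, adjusted p = 0.00596. ATP5F1D was at 0.80 ± 0.22, adjusted p = 0.0143, with footprint and mRNA changes of -1.30 and -2.07 for shBP2-2. UQCRC2 (-0.12), UQCRFS1 (0.01), COX5B (0.33), ATP5F1A (0.05), ATP5MC1 (-0.11), ATP5MC2 (0.30), ATP5MC3 (-0.23) and ATP5IF1 (0.05) were not called. Between the hairpins limma called 0 members (4 at an unadjusted p under 0.05), where 0.271% of genes were higher and 0.597% lower with shBP2-1, and 1 member was called without precision weights.

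The calls of UQCRB, ATP5MPL, ATP5MD, CYCS, ATP5F1C, UQCRC1 and ATP5F1B held with any 1 library left out, and the number of efficiency calls was 9 without shNS footprint replicate 2. Calls lost on leaving out 1 library, with the adjusted p, were ATP5F1D without shNS footprint replicate 2 (0.0662), CYC1 without shNS footprint replicate 2 or shBP2-1 footprint replicate 2 or shNS mRNA replicate 1 (0.109, 0.0546 and 0.0738), COX4I1 without shNS footprint replicate 1 or shBP2-1 footprint replicate 1 or shBP2-2 footprint replicate 2 or shNS mRNA replicate 1 (0.111, 0.061, 0.0572 and 0.0931), COX20 without shNS footprint replicate 2 (0.108), ATP5PF without shNS footprint replicate 2 (0.0561), ATP5PO without shNS footprint replicate 1 or shBP2-1 footprint replicate 1 (0.0801 and 0.0519) and ATP5PB without shNS footprint replicate 2 or shBP2-1 footprint replicate 1 or shNS mRNA replicate 1 (0.065, 0.06 and 0.0623). Those of COX5A and ATP5PD were lost without 8 and 8 of the 12 libraries, at adjusted p values up to 0.0989 and 0.129.

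In the control cells themselves, these genes carried many footprints for their mRNA. The ratio of footprint to mRNA in shNS was above that of the median gene for 41 of 48 members, with a median of 1.5 on the log2 scale. It is not corrected for the untranslated parts of the mRNA or for coding length. COX6C was highest at 2.71, with footprints of 818 and 858 over mRNA of 2249 and 2248, followed by ATP5PD (2.49), ATP5MG (2.49), ATP5MPL (2.45), ATP5F1A (2.40) and UQCRB (2.31). All 10 complex IV subunits lay above the median gene, with a class median of 1.69, and so did the 4 peripheral stalk genes, with 1.96. The 9 assembly factors, which are not parts of the finished enzyme, had a class median of -0.08 and 3 of 9 above the median gene. COX10 was lowest at -1.37. Within the F1 head and central stalk the ratio ran from 0.11 for ATP5F1D to 2.40 for ATP5F1A.

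**Figure D4:**
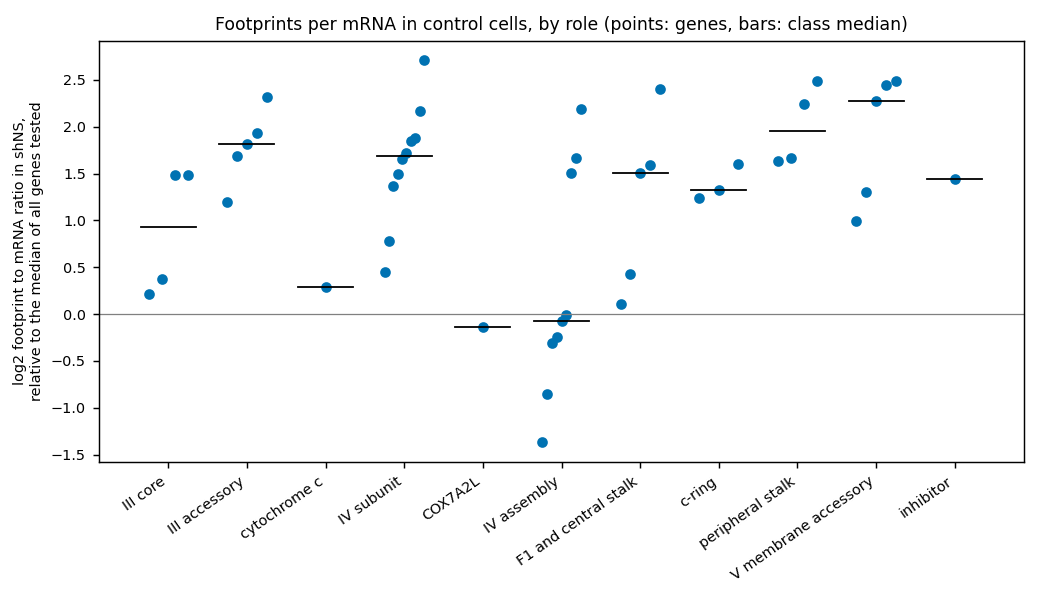
Log2 ratio of footprint to mRNA value in shNS for 48 members, relative to the median of the 9216 genes tested in both assays, by role (points are genes, bars are class medians). Subunits of the complexes lie mostly above 1 and the COX assembly factors scatter around 0, with a class median of -0.08.

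Genes that build, feed or control these complexes were counted in the mean of both hairpins as well, and their counts stand beside shares over all genes of 28.9% higher and 30.0% lower in mRNA and 4.96% higher and 4.28% lower in footprints. Of 6 tested complex III assembly genes 0 rose and 3 fell in mRNA, among them BCS1L, which inserts the Rieske protein (-0.45 ± 0.10, adjusted p = 0.0022). Of 24 other complex IV genes 7 rose and 6 fell, shares near those of all genes. LRPPRC, which stabilizes mitochondrial mRNAs, rose (0.54 ± 0.10, adjusted p = 0.000771), as did its partner SLIRP (0.24), while COA3 fell (-0.45). In footprints 2 of 23 complex IV genes were called higher in the mean, SCO2, a copper chaperone (1.01 ± 0.22, adjusted p = 0.0148), and NDUFA4 (0.21 ± 0.06, adjusted p = 0.0432), both relative to the middle of all genes, and 1 was called lower, PET117 (-1.09 ± 0.29, adjusted p = 0.0372). With shBP2-1 alone 3 were higher (NDUFA4, SCO2 and SURF1) and 0 lower, against 3.86 and 2.88% of all genes. With shBP2-2 alone 0 were higher and 5 lower (PET100, PET117, COA6, COA7 and SLIRP), against 7.02 and 5.32%. The complex III factor LYRM7 (-0.89 ± 0.26, adjusted p = 0.048) and the complex V factor TMEM242 (-1.43 ± 0.39, adjusted p = 0.0395) were also called lower. Deposited footprint values with shBP2-1 were only 4 and 4 for PET117, 5 and 5 for LYRM7 and 1 and 1 for TMEM242. Those of SCO2 were 12 and 14, so the sizes of these 4 changes are uncertain. Of 7 complex V assembly genes 2 rose, ATPAF1 (0.46) and TMEM70 (0.53), and 2 fell, FMC1 (-0.84) and ATPAF2 (-0.34).

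Of the 4 carriers of ATP, ADP and phosphate 2 fell in mRNA, SLC25A6 (-0.68 ± 0.10, adjusted p = 0.000371) and SLC25A4 (-0.42), and 0 were called in footprints in the mean. With shBP2-2 alone SLC25A6 footprints were called higher (0.44 ± 0.11, adjusted p = 0.0223), relative to the middle of all genes. Of 10 tested regulators of mitochondrial gene expression 3 rose, TFAM (0.38), GABPA (0.36) and GABPB1 (0.34), and 5 fell, POLRMT (-0.49), ESRRA (-0.42), PPRC1 (-0.41), NRF1 (-0.27) and TFB2M (-0.27). Over all genes 28.9% rose and 30.0% fell in mRNA. TFB2M, a transcription factor of mitochondrial DNA, also had lower footprints, at 213 and 225 (shNS), 104 and 101 (shBP2-1) and 105 and 121 (shBP2-2) (-1.0 ± 0.12, adjusted p = 0.000297). Of the 6 partner subunits encoded in mitochondrial DNA 3 rose in mRNA and 1 in footprints in the mean. Their footprints were called higher for all 6 with shBP2-1, where 3.86% of all genes were, and lower for all 6 with shBP2-2, where 5.32% were, as in MT-CO1 at 1409 and 1180.1 (shNS), 2679 and 2609.7 (shBP2-1) and 937 and 998 (shBP2-2). These directions are relative to the middle gene, which without rescaling stood at -3.32 with shBP2-1 and -1.19 with shBP2-2, beyond the median rise of 0.94 in these 6 genes with shBP2-1.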

How the data were processed

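The deposited table holds the authors' normalized read counts rounded to whole numbers, which are treated here as a score. The sources used here do not state the normalization method. Per the labels, mRNA libraries were stranded. The submitters' processing notes name FastQC, cutadapt, Bowtie, STAR, RSEM and the build hg38. Values were divided by median-ratio factors within each assay. Genes with a mean deposited value of at least 10 were tested with limma 3.58.1 in R 4.3.3, with voom precision weights and Benjamini-Hochberg adjustment over all genes tested, and count models were not used. Translational efficiency was the assay by hairpin interaction over 12 libraries. The fit was tested on simulated data with the same dispersion for every gene and library, in which changed genes had a mean of at least 50. The real spread differed between groups, so the rates need not hold for these libraries. There, false calls made up 4.22% of the calls in mRNA, 8.76% in footprints and 4.48% in translational efficiency. For translational efficiency, 5.59% of log2 changes of 0.5 were recovered. Members and gene lists were chosen with earlier results of these data known. Named genes were 15 core members and those with the largest called changes in each assay and direction. Alternatives were another scaling, minimum, pseudocount and weighting, a replicate block, a fit over all 12 libraries, and leaving out each library, which was run for members only. Promoter sequences and coordinates came from RefSeq tables (GRCh38.p14), in which 49 of 49 members were matched, 2 by synonym. Coding lengths and proteins were not used here.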

Additional observations from a re-analysis of the deposited data

Results flagged for a closer look

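In mRNA, 9 members differed between shBP2-1 and shBP2-2 in the test of the difference itself (limma, Benjamini-Hochberg adjusted over all genes). ATP5F1D was higher with shBP2-1 by 1.56 on the log2 scale (adjusted p = 6.04e-06), with changes from shNS of -0.50 and -2.07. COX5B was higher with shBP2-1 by 0.48 on the log2 scale (adjusted p = 0.00798), with changes from shNS of -0.23 and -0.71. COX4I1 was higher with shBP2-1 by 0.43 on the log2 scale (adjusted p = 0.019), with changes from shNS of -0.21 and -0.64. UQCRC1 was higher with shBP2-1 by 0.38 on the log2 scale (adjusted p = 0.0408), with changes from shNS of -0.22 and -0.60. COX6B1 was higher with shBP2-1 by 0.37 on the log2 scale (adjusted p = 0.049), with changes from shNS of -0.14 and -0.51. UQCRQ was higher with shBP2-1 by 0.36 on the log2 scale (adjusted p = 0.0259), with changes from shNS of 0.05 and -0.31. COX6C was higher with shBP2-1 by 0.35 on the log2 scale (adjusted p = 0.017), with changes from shNS of 0.34 and -0.01. COX15 was higher with shBP2-1 by 0.34 on the log2 scale (adjusted p = 0.0303), with changes from shNS of 0.25 and -0.09. COX7C was higher with shBP2-1 by 0.28 on the log2 scale (adjusted p = 0.0488), with changes from shNS of 0.40 and 0.11.

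In footprints, 5 members differed between shBP2-1 and shBP2-2 in the test of the difference itself (limma, Benjamini-Hochberg adjusted over all genes). ATP5F1D was higher with shBP2-1 by 1.62 on the log2 scale (adjusted p = 0.00124), with changes from shNS of 0.32 and -1.30. COX6C was higher with shBP2-1 by 0.52 on the log2 scale (adjusted p = 0.00374), with changes from shNS of 0.25 and -0.27. ATP5MG was higher with shBP2-1 by 0.52 on the log2 scale (adjusted p = 0.012), with changes from shNS of 0.23 and -0.29. UQCRC1 was higher with shBP2-1 by 0.44 on the log2 scale (adjusted p = 0.0109), with changes from shNS of 0.36 and -0.08. ATP5PF was higher with shBP2-1 by 0.36 on the log2 scale (adjusted p = 0.0444), with changes from shNS of 0.17 and -0.19. The footprint differences are relative to the middle of all genes and turned negative or were lost without rescaling.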

How the results depend on the processing

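The fall of IGF2BP2 kept its direction and call under all alternatives, between -2.02 and -1.95 with 1 library left out. Counts of called members with 1 library left out ran from 8 to 31 in mRNA for the mean of both hairpins, 5 to 29 for shBP2-1, 12 to 30 for shBP2-2 and 1 to 15 for the hairpin difference, from 3 to 15 in footprints for the mean and 1 to 8 for the difference, and from 9 to 21 in translational efficiency for the mean and 0 to 1 for the difference. The mRNA difference count of 9 became 14 without rescaling, 3 with no minimum, 3 with the replicate block and 16 in the fit over all 12 libraries. The footprint mean count of 10 became 6 without weights, 6 with a pseudocount of 5, 4 in the fit over all 12 libraries and 48 without rescaling. The footprint difference count of 5 became 9, 9, 3 and 47 under the same settings. The efficiency mean count became 48 without rescaling, and the efficiency difference count of 0 became 1 without weights, 1 with a minimum mean of 50, 1 with a pseudocount of 5 and 48 without rescaling.

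Without rescaling these directions reversed, by the construction of that setting, in which every footprint library keeps its own total. Footprint changes became -1.70 for ATP5F1E, -2.11 for UQCRC1, -2.23 for CYC1, -2.23 for COX4I1, -2.23 for ATP5F1A, -2.15 for ATP5F1B and -2.25 for ATP5IF1. Efficiency changes became -1.43 for ATP5F1D, -1.69 for UQCRC1, -1.73 for CYC1, -1.79 for COX4I1, -1.92 for ATP5F1B, -2.23 for UQCRFS1, -1.91 for COX5B, -2.19 for ATP5F1A, -1.94 for ATP5MC2 and -2.19 for ATP5IF1. For the other changes the cause was not tested.

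Same-numbered libraries showed no strong positive correlation of their deviations, at 0.11, -0.06 and -0.36 in mRNA and 0.02, 0.08 and 0.01 in footprints. The -0.36 means that mRNA replicate 1 of shBP2-1 tended to deviate like replicate 2 of shBP2-2. These values cannot show whether the libraries were paired or independent. With the replicate block 20 of 49 members were called in mRNA, 12 in footprints and 15 in efficiency for the mean of both hairpins, and 3 in the mRNA difference. The read depth behind the normalized footprint values is not known.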
